A study of Homo sapiens with 13 samples.

Results

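The 39 protein-coding genes of the 4 human HOX clusters were followed through lists of accessible chromatin regions from 2 small cell lung cancer (SCLC) cell lines, H82 and H146. They were taken by symbol (HOXA, HOXB, HOXC or HOXD with a number) from the 20007 protein-coding genes of GENCODE release 44 on chromosomes 1 to 22, X and Y. The clusters hold 11 genes on chromosome 7 (HOXA), 10 on chromosome 17 (HOXB), 9 on chromosome 12 (HOXC) and 9 on chromosome 2 (HOXD). ATAC-seq, in which a transposase cuts open chromatin, was carried out on untreated cells and on cells given 100 nM FHD-286, which blocks the SMARCA2 and SMARCA4 motors of the SWI/SNF remodelling complex, for 14 days. H82 belongs to the NEUROD1 subtype of SCLC (SCLC-N) and H146 to the subtype SCLC-A, and both are labelled wild type. The labels give 3 untreated and 3 treated H82 samples, and 4 untreated and 3 treated H146 samples. Cells were cryopreserved before the assay, and 3 of the H146 controls were sequenced apart from the other 4 H146 samples.

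Each line has 1 list of regions, pooled over its untreated and treated samples, with a start and an end for each region and no height, read count or sample of origin. A region therefore means that the site was open in at least 1 library of the line. No difference between the lines or between HOX genes and other genes could be tested, and FHD-286 could not be set against untreated cells. Depth per library is unknown. More libraries, or deeper ones, can lengthen a pooled list, although H146, with 7 libraries, listed fewer regions than H82, with 6. Each value below is therefore set beside the same value over the genome or over all protein-coding genes. Each cell line is a single model of its subtype, so subtype and line cannot be told apart.

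The lists carried 206927 regions for H82 and 174093 for H146, which covered 5.41% and 4.49% of the genome. At the transcription start site (TSS) of NEUROD1, regions covered 100% of the bases within 1 kb in H82 and 0% in H146. The neuroendocrine gene INSM1 had 100% in both. Of the 7 SCLC markers, 6 had a TSS region in both lines and NEUROD1 had one in H82 only. NEUROD1 thus separated the lines as their labels do.

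An unusual feature of the lists bears on shared regions. Of the 122719 H82 regions that overlapped an H146 region, 35829 (29.2%) began at the very same base, against 556 that began 1 bp away. Over the HOX clusters with 50 kb to either side, 28 of 81 such H82 regions (34.6%) had a start or an end at the same base as in H146. The genome-wide share with a start or an end at the same base was higher, at 42.7%. Among the 23 HOX genes with a TSS region in both lines, 4 had such an edge. The cause was not tested. Regions of H82 alone or H146 alone have no partner, and thus no edge in common. With all regions that share an edge left out of both lists, a setting chosen after the data were seen, 19 HOX genes had a TSS region in both lines and 8 in neither. Regions of H82 alone were found at 11 and of H146 alone at 1, and the 11 were the same genes as reported here. These 11 could not leave their class under this setting, since their H82 regions have no partner, so only other genes could have joined them.

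HOX genes encode homeodomain transcription factors that set position along the body axis of the embryo. Vertebrates carry them in clusters, where the order of the genes on the chromosome follows the order of their domains from head to tail, so that low numbers (paralog group 1) act in front and high numbers (paralog group 13) act at the rear end. Polycomb complexes keep silent HOX genes in closed chromatin, trithorax proteins such as KMT2A keep active ones open, and retinoic acid switches on the low-numbered end. HOX proteins bind DNA with PBX, MEIS and PKNOX cofactors. In the lung, HOXA5 and HOXB5 have known roles in development.

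The data showed open chromatin at more HOX start sites in H82 than in H146. A region lay within 1 kb of the TSS at 34 of the 39 HOX genes in H82 and at 24 in H146. Both lines had a region at 23 genes (59.0%), H82 only at 11 (28.2%), H146 only at 1 (2.56%) and neither at 4 (10.3%). Over all protein-coding genes the corresponding shares were 75.4%, 5.09%, 1.86% and 17.7%. The share of H82-only genes was thus well above the background share, and the share of genes open in both lines was below it. The 11 genes of H82 only were HOXA2, HOXA4, HOXA5, HOXB8, HOXB13, HOXC6, HOXC11, HOXC13, HOXD3, HOXD8 and HOXD9. The gene of H146 only was HOXB7, and those of neither line were HOXA10, HOXB1, HOXC12 and HOXD4. Every cluster held 2 or 3 genes of H82 only, with 3 of 11 in HOXA, 2 of 10 in HOXB, 3 of 9 in HOXC and 3 of 9 in HOXD.

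**Figure D1:**
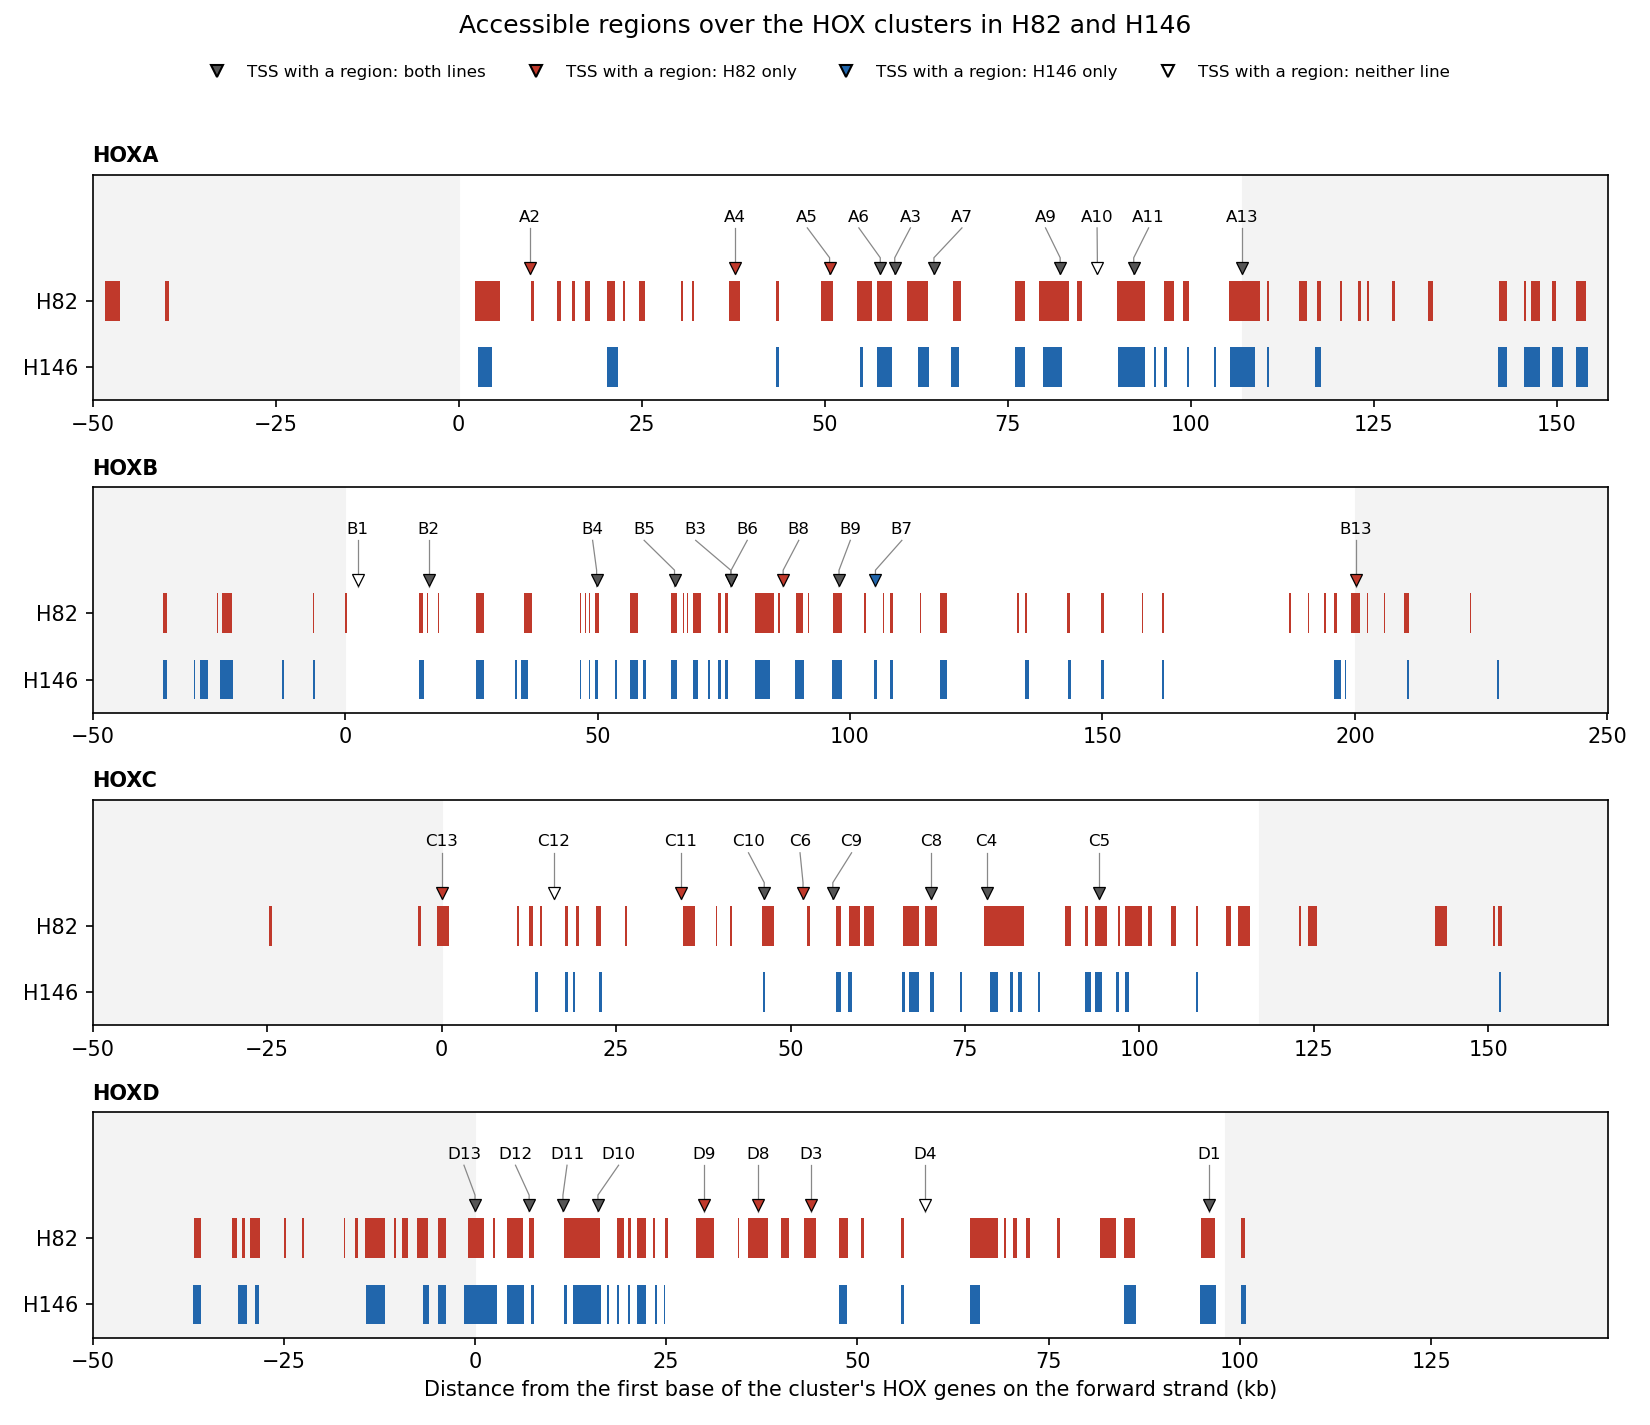
Regions of H82 (upper track) and H146 (lower track) along the 4 clusters, with distance in kb from the first base of the HOX genes on the x axis, grey shading over the 50 kb flanks and a triangle at the TSSs (1 gene is not marked) coloured by the line with a region within 1 kb. The H146 track is empty around the starts of HOXD9, HOXD8 and HOXD3, where H82 has regions, and the tracks look most alike over HOXB.

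The sequences just before some of these starts are shown because they cover the 3 outcomes. Promoters were taken from RefSeq (build GRCh38.p14), which matched 27 entries of 20 HOX genes in the table used here. Each line gives the 250 bases before the RefSeq start, 5′ to 3′ on the strand of the gene, with CG dinucleotides in capitals. HOXA13 stands for starts open in both lines, HOXD8, HOXA4 and HOXA2 are starts of H82 only, and HOXD4 had no region in either line. HOXA13 and HOXD4 were chosen after their values were seen.
HOXA13 (chr7:27200092-27200341, minus strand): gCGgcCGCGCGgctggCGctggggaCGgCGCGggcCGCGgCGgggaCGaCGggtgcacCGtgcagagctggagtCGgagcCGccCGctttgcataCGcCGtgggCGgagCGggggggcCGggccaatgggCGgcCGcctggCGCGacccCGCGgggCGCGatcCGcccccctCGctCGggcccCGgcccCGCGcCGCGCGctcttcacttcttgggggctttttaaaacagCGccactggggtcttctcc
HOXD8 (chr2:176129455-176129704, plus strand): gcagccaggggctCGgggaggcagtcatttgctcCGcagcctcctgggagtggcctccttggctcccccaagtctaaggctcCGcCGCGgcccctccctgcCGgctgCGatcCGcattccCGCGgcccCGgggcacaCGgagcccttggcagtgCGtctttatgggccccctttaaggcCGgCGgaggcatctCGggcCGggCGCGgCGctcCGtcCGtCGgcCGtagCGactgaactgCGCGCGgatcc
HOXA4 (chr7:27130758-27131007, minus strand): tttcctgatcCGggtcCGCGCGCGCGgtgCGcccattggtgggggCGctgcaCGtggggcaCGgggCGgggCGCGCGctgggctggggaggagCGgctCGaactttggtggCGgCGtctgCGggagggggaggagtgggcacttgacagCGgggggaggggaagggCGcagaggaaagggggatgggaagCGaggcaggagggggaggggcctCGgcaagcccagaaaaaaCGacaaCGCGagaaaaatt
HOXA2 (chr7:27102684-27102933, minus strand): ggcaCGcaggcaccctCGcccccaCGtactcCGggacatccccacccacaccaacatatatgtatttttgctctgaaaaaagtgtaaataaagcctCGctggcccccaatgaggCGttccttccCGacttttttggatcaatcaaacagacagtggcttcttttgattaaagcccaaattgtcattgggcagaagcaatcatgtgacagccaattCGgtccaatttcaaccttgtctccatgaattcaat
HOXD4 (chr2:176151300-176151549, plus strand): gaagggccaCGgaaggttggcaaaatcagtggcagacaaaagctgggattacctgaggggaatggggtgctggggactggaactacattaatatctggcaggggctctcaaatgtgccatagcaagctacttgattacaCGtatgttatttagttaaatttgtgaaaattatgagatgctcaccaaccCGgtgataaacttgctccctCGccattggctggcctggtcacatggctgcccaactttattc

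The HOXA13 stretch holds 40 CG dinucleotides and lay wholly inside regions of both lines. The HOXD8 stretch holds 28 and the HOXA4 stretch 26, and both lay wholly inside an H82 region (250 of 250 bases) with 0 bases inside an H146 region. HOXA2 has 8 CG dinucleotides, with 33 bases inside an H82 region and 0 inside an H146 region. HOXD4 has 4, and no base of it lay in a region of either line. The classes overlapped more than these stretches show. All 27 HOX promoter entries were also classed by the regions that reached them, with 50 bases after the start included. The 10 entries of both lines had a median of 28 CG dinucleotides (13 to 44). The median was 15 for the 7 entries of H82 only (6 to 34) and also 15 for the 10 of neither line (0 to 25). Entries are not independent. Those of HOXC4 and HOXC5, both among the 7, are the same stretch, with 15 CG dinucleotides. The 10 of neither line come from 7 genes, with several starts of HOXA3 among them.

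Anterior genes, paralog groups 1 to 3, pattern the hindbrain and the pharyngeal arches. Of their 8 members, 5 had a TSS region in both lines (among them HOXA3, HOXB2, HOXB3 and HOXD1), 2 in H82 only (HOXA2 and HOXD3) and 1 in neither (HOXB1). The regions at HOXA3, HOXB2 and HOXB3 did not cover the TSS itself in either line. At HOXB2 they reached only 10.3% of the bases within 1 kb in H82 and 1.15% in H146. HOXB2 was of H82 only with a 500 bp window, and of H146 only with regions of at least 500 bp. HOXD1 had 90.6% of the bases within 1 kb of its TSS covered in H82 and 95.6% in H146, so the lines were close there. At HOXD3, which shapes the first neck vertebrae, an H82 region of 1596 bp (chr2:176135709-176137304) lay across the TSS and covered 79.8% within 1 kb, and H146 had none there. HOXA2, the main selector gene of the hyoid arch, had only a narrow H82 region of 376 bp that ended before the TSS and covered 18.8%, and no H146 region. HOXB1, which specifies a segment of the hindbrain, had 0% in both lines. Within 10 kb of the HOXB1 TSS, 2.82% of the bases were covered in H82 and 1.58% in H146, the lowest H82 share of the 39 genes.

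Central genes, paralog groups 4 to 8, act in the neck and trunk. Of their 15 members, 8 had a TSS region in both lines (HOXA6, HOXA7, HOXB4, HOXB5, HOXB6, HOXC4, HOXC5 and HOXC8), 5 were of H82 alone, 1 of H146 alone and 1 was of neither. HOXD8 showed the clearest contrast. An H82 region of 2605 bp (chr2:176128384-176130988) was centred 8 bp from its TSS and covered 100% of the bases within 1 kb, whereas H146 had 0% within 1 kb and 0% within 10 kb. HOXA4 had an H82 region of 1623 bp (chr7:27129884-27131506) that covered 81.1% within 1 kb, against 0% in H146. HOXA5, which is needed for normal lung development, had an H82 region of 1521 bp (chr7:27142575-27144095) that covered 70.7%, against 0%. HOXC6 and HOXB8 had only narrow H82 regions, of 464 bp and 393 bp, that lay downstream of the TSS and did not cover it. HOXB7 was the only gene with a region in H146 alone, which was 600 bp wide (chr17:48633342-48633941) and covered its TSS. HOXB5, the other lung gene, was alike in the lines, with 60.02% in H82 and 65.6% in H146. HOXC4 carried the widest TSS region of all HOX genes in H82, of 5679 bp (chr12:54016537-54022215), and a region of 1154 bp in H146 that began 440 bp after the TSS. HOXD4 had 0% in both lines within 1 kb, and 21.3% in H82 against 8.50% in H146 within 10 kb.

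Posterior genes, paralog groups 9 to 13, act in the lower trunk, the limbs and the urogenital tract. Of their 16 members, 10 had a TSS region in both lines, 4 in H82 only (HOXB13, HOXC11, HOXC13 and HOXD9) and 2 in neither (HOXA10 and HOXC12). At the far end of the clusters, HOXA13 and HOXD13, which shape the digits and the genital tract, were open in both lines. HOXA13 had 100% of the bases within 1 kb covered in each line, by a region of 4239 bp in H82 and of 3388 bp in H146. HOXD13 had 97.6% in H82 and 100% in H146, where its region of 4392 bp (chr2:176091233-176095624) was wider than the 2117 bp of H82. In HOXB and HOXC the group 13 genes differed from these. HOXB13, a gene of the prostate and hindgut, had an H82 region of 1832 bp (chr17:48727745-48729576) that covered 91.3%, against 0% in H146. HOXC13, a regulator of hair keratins, had an H82 region of 1718 bp (chr12:53938213-53939930) that covered 80.9%, against 0%. HOXD9, a gene of limb and trunk patterning, had an H82 region of 2375 bp (chr2:176121628-176124002) that covered 100%, against 0%. At HOXC11 an H82 region of 1738 bp began 242 bp after the TSS. HOXA11 was covered to 100% in both lines, and HOXA9, a gene known from leukaemia, to 100% in H82 and 65.0% in H146.

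**Figure D2:**
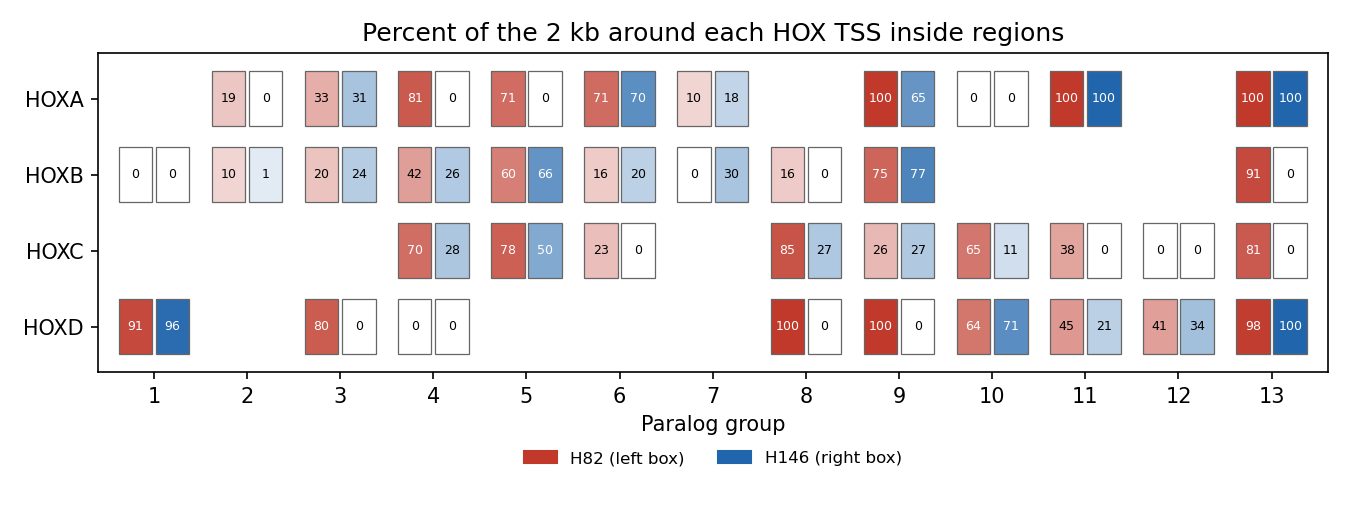
Percent of bases within 1 kb of the TSS inside regions, for each cluster (y axis) and paralog group (x axis), with H82 in the left box and H146 in the right box and darker shades for higher values. Empty positions are genes that the human clusters lack, or 1 that is not drawn. White right boxes beside dark left boxes mark HOXA4, HOXA5, HOXB13, HOXC13, HOXD3, HOXD8 and HOXD9.

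The choice of start site mattered for some of these genes, since several HOX gene records begin at a far upstream transcript. With the starts of all protein-coding transcripts, 28 genes had a region in both lines and 3 in neither, 8 were of H82 alone and 0 of H146 alone. HOXB7, HOXB8, HOXC6, HOXD3 and HOXA10 then had a region in both lines. HOXD3 had 5 distinct starts, all 5 with an H82 region and 1 with an H146 region, and HOXC6 had 4 with an H82 region and 1 with an H146 region. HOXA2, HOXA4, HOXA5, HOXB13, HOXC11, HOXC13, HOXD8 and HOXD9 kept regions in H82 only. Over all protein-coding genes 4.05% were H82 only by this measure. HOXA4, HOXC11, HOXC13, HOXD8 and HOXD9 were of H82 only under each of the 7 alternative settings tried. Among these, the setting without regions that share an edge could not have changed them, since their H82 regions have no partner in H146. HOXB13 lost this class with windows of 2 kb and 5 kb, HOXD3 with 5 kb and with all transcripts, HOXA5 with 5 kb, HOXA2 when regions under 500 bp were left out, and HOXC6 and HOXB8 under 4 settings each.

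TSS regions of HOX genes were about as wide as those of other genes. The median width was 1761 bp over the 34 HOX genes with a region in H82 and 1432.5 bp over the 24 in H146. Over all protein-coding genes it was 1775 bp and 1708 bp. Directly at the TSS, 59.0% of HOX genes lay in a region in H82 and 38.5% in H146, against 72.3% and 69.6% of all genes. At 2 kb downstream the shares were 28.2% and 23.1% for HOX genes, and 18.9% and 16.0% for all genes. Directly at the start HOX genes were thus less often open than other genes in either line, and 2 kb downstream they were more often open. In H146 the latter depended on the distance chosen. At 3000 bp downstream the shares were 20.5% in H82 and 10.3% in H146 for HOX genes, and 13.5% and 10.9% for all genes. Within 1 kb of the TSS the share of HOX genes with any region was 87.2% in H82 and 61.5% in H146, against 80.5% and 77.2% of all genes.

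**Figure D3:**
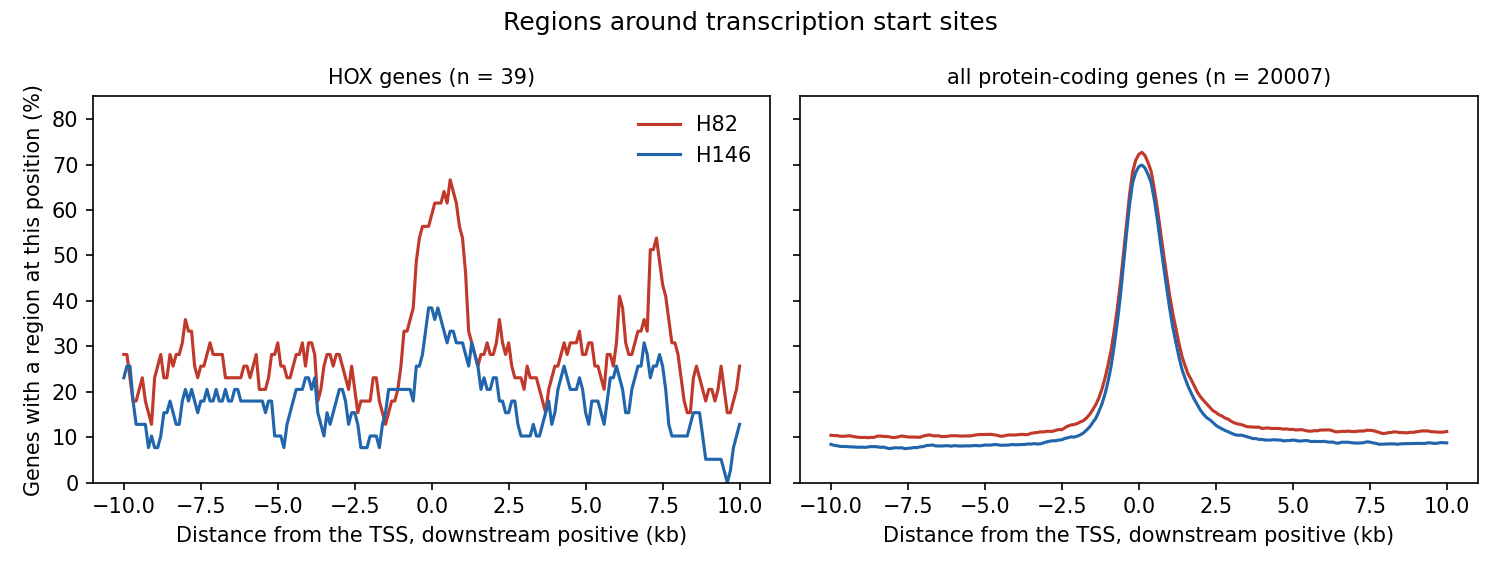
Percent of genes with a region at each distance from the TSS (x axis, kb, downstream positive), for the 39 HOX genes (left) and the 20007 protein-coding genes (right), with H82 in red and H146 in blue. The lines run close together over all genes, whereas over HOX genes H82 reaches 59.0% at the TSS and H146 38.5%.

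The surroundings of each gene were measured as the share of bases inside regions within 10 kb of the TSS. The windows of neighbouring HOX genes overlap, so these values are not independent. The median share over the 39 genes was 30.4% in H82 (2.82% to 49.1%) and 15.6% in H146 (0% to 55.5%), against 12.5% and 10.9% over all protein-coding genes. The share was higher in H82 at 34 genes and higher in H146 at 5. The median difference, H82 minus H146, was 11.2 percentage points over the HOX genes and 0.29 over all genes. H82 was higher by at least 10 points at 23 HOX genes (59.0%), against 11.6% of all genes, and H146 was higher by at least 10 points at 0, against 2.51%.

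The largest differences lay in HOXD and HOXA. HOXD8 had 39.02% in H82 and 0% in H146, HOXD3 had 34.6% and 5.47%, and HOXD9 had 37.1% and 9.05%. HOXA3 had 47.9% and 25.4%, and HOXA6 had 43.0% and 21.3%. The starts of these 5 genes lie in central parts of their clusters. In the other direction the differences were small. HOXD12 had 49.1% in H82 and 55.5% in H146, HOXD13 had 41.6% and 43.7%, HOXB4 had 15.1% and 17.2%, HOXD1 had 13.8% and 15.6%, and HOXB9 had 20.03% and 21.4%. HOXD thus held both the largest excess of H82 and the largest excess of H146 among the 39 genes. By cluster the median difference was 13.2 points in HOXA, 1.09 in HOXB, 15.2 in HOXC and 7.53 in HOXD. By position it was 9.30 points for groups 1 to 3, 12.8 for groups 4 to 8 and 10.99 for groups 9 to 13.

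**Figure D4:**
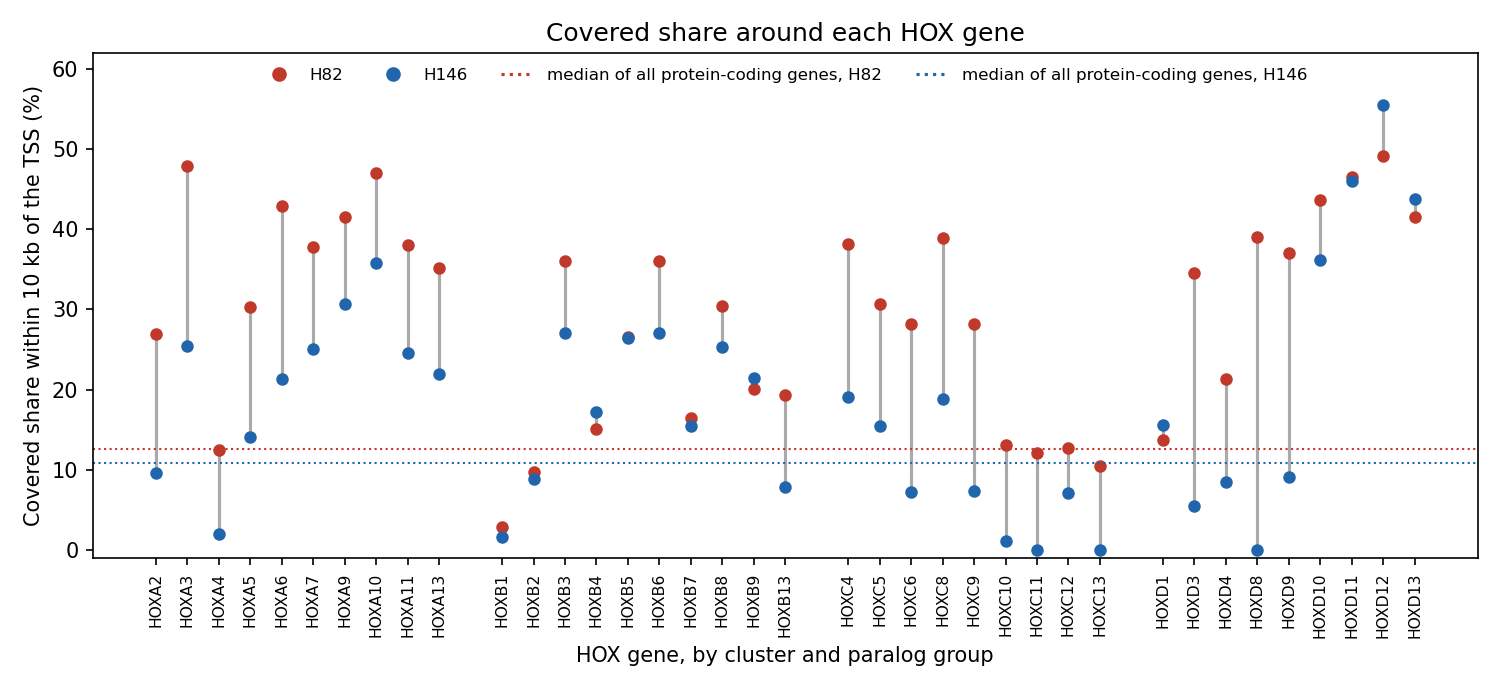
Share of bases inside regions within 10 kb of the TSS (y axis, %) for each HOX gene (x axis), with H82 in red, H146 in blue and a grey line between them. Dotted lines are the medians of all protein-coding genes, 12.5% and 10.9%. 1 gene of HOXA is not drawn. Red points lie above blue points at all genes drawn but HOXB4, HOXB9, HOXD1, HOXD12 and HOXD13, and the pairs lie close together in most of HOXB and at HOXD11 to HOXD13.

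Each cluster was then taken whole, from its outermost HOX gene to the opposite end with 50 kb to either side. HOXC differed most in ratio. Its window held 36 regions in H82 and 21 in H146, which covered 16.7% and 5.24%, a ratio of 3.20 where the ratio for the whole of chromosome 12 was 1.11. HOXA had 39 and 21 regions and 22.5% and 14.0% covered, a ratio of 1.61 against 1.36 for chromosome 7. HOXD had 40 and 23 regions and 22.5% and 13.9% covered, a ratio of 1.62 against 1.29 for chromosome 2. HOXB had 46 and 35 regions and 10.9% and 10.5% covered, a ratio of 1.05 against 1.28 for chromosome 17. With regions under 500 bp left out this order turned, with 20 and 22 regions and 8.50% and 9.10% covered. HOXA, HOXC and HOXD were thus covered more in H82 than their chromosomes would give, and HOXB was not. Among 14363 windows of 200 kb across the genome, the difference between the lines was at least as large in favour of H82 in 1.82% for HOXC, 3.03% for HOXD, 3.10% for HOXA and 43.8% for HOXB. These ranks describe where the clusters stand and are not a test.

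The 3 clusters with more in H82 differed in where the excess lay. Over the HOX genes themselves, from the outermost gene start to end, HOXA was covered to 31.3% in H82 and 18.4% in H146, HOXC to 26.5% and 9.45%, and HOXD to 33.1% and 18.8%. HOXB had 13.7% and 12.5%. The 50 kb beside the group 13 gene were open in both lines at HOXA (21.0% and 18.6%) and HOXD (23.3% and 17.03%), where the EVX1 and EVX2 homeobox genes lie. Beside HOXC13 they were nearly empty, with 2.58% and 0%. Beside the low-numbered end HOXA had 4.95% in H82 and 0% in H146, HOXD had 0.998% and 1.17%, and HOXC had 8.12% and 0.592%. HOXB had 6.20% in H82 and 11.5% in H146 beside HOXB1, so that H146 was the higher there.

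**Figure D5:**
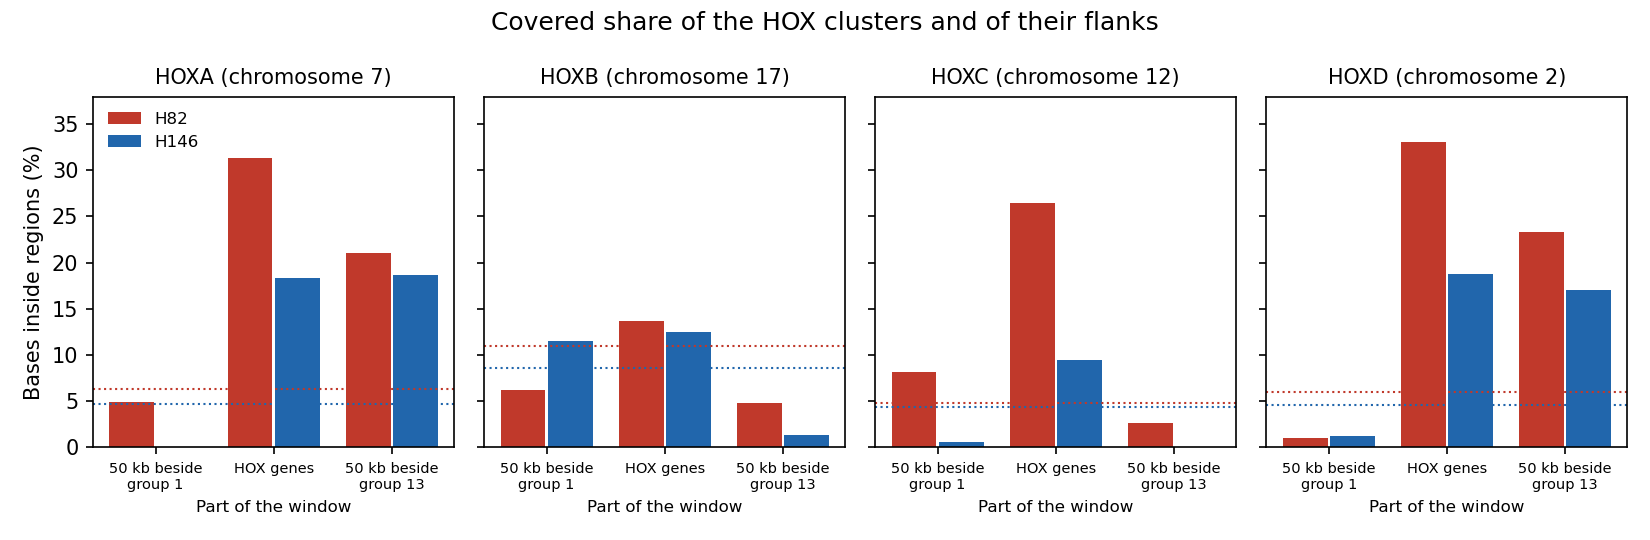
Percent of bases inside regions (y axis) for the HOX genes of each cluster and for the 50 kb at each end (x axis), in H82 (red bars) and H146 (blue bars). Dotted lines give the whole chromosome. The middle bars of HOXA, HOXC and HOXD are well above the chromosome in H82, and those of HOXB differ little between lines.

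H146 lacked regions over whole stretches of 3 clusters. In HOXD, 22.7 kb (chr2:176117610-176140301) held no H146 region and contained the starts of HOXD9, HOXD8 and HOXD3, and 6 H82 regions covered 35.9% of it. On either side of this stretch H146 was open at HOXD10 to HOXD13 and at HOXD1. In HOXC, 23.1 kb (chr12:53961846-53984945) around HOXC11 held no H146 region and 5 H82 regions that covered 11.2%. In HOXA, 21.6 kb (chr7:27114795-27136408) around HOXA4 held no H146 region and 6 H82 regions that covered 14.6%. In these 3 stretches the count of H82 regions includes a region that reaches across an edge and overlaps an H146 region just outside. The longest gap of H82 within the genes of HOXA was 7.40 kb, of HOXC 9.76 kb and of HOXD 8.69 kb, the last of which held HOXD4. In HOXB the longest gap fell between HOXB7 and HOXB13 in both lines, with 24.9 kb in H82 and 33.8 kb in H146, and held no HOX start.

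H146 regions of the clusters were mostly shared, and H82 added others. Of 100 H146 regions in the 4 windows, 83 (83.0%) overlapped an H82 region, against 70.5% of H146 regions genome-wide. Of 161 H82 regions, 81 (50.3%) overlapped an H146 region, against 59.3% genome-wide. Regions of H82 alone were narrower than shared ones, with a median of 355 bp against 1110 bp. Of these 80, 7 covered a HOX TSS, 15 lay over exons of HOX genes, 16 in their introns and 42 outside HOX genes, some of these within other genes such as EVX2 and HAGLR. The 7 at a TSS had a median width of 1718 bp, and the 42 outside HOX genes 296 bp. The widest were those over HOXD8 and HOXD9, followed by a region of 2123 bp within the non-coding gene HAGLR (chr2:176174399-176176521), 13208 bp upstream of HOXD1. Of the 17 H146 regions without an H82 partner, 10 lay in the HOXB window, 4 in HOXC, 2 in HOXA and 1 in HOXD. The widest of them had 1601 bp (chr17:48499839-48501439) and lay 30372 bp downstream of the HOXB1 TSS, outside HOX genes. The next were the region at HOXB7 and a region of 555 bp in an intron of HOXB3 (chr17:48587573-48588127).

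The 300 bases at the centre of that widest H146 region (hg38, plus strand) are shown because no H82 region reached them, with CG dinucleotides in capitals.
HOXB flank (chr17:48500490-48500789): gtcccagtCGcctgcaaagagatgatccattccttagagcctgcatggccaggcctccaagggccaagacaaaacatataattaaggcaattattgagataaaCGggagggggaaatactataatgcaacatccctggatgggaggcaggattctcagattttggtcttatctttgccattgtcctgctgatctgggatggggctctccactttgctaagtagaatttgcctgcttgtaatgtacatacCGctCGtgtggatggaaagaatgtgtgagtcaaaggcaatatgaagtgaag

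This stretch holds 4 CG dinucleotides and 46.0% G and C. It holds 0 copies of CAGATG, an E-box word that NEUROD1 is known to bind, searched on both strands, which says only that these letters are not in this window.

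Retinoic acid response elements are known switches of HOX genes. Receptors of retinoic acid bind a repeated hexamer, and the element DR5, with 5 bases between the repeats, is the classical form. The consensus of the DR5 element was searched on both strands. The 4 windows held 8 such matches, of which 4 lay in H82 regions and 3 in H146 regions. Genome-wide 8.06% of 5805 matches lay in H82 regions and 5.82% in H146 regions. Of the 8, 5 are shown because they lie at like places of different clusters, with the DR5 match in capitals and 5 bases to either side, on the strand of the match.
HOXA, in the HOXA3 gene (chr7:27113524-27113540): atctcGGTTCAAGAAGAGTTCAcaagc
HOXB, in the HOXB3 gene (chr17:48555430-48555446): atctcGGTTCAAGAAGAGTTCAcaagc
HOXD, in the HOXD3 gene (chr2:176165913-176165929): ttttaGGTTCAAGCAGAGTTCAcaagg
HOXB, beyond HOXB1 (chr17:48522274-48522290): ttcccGGTTCATAGAGAGTTCAgccct
HOXC, beyond HOXC4 (chr12:54082784-54082800): atcttGGTTCACCGAGAGTTCAcacgg

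The HOXA and HOXB elements inside the group 3 genes are the same in all 27 bases printed, and both lay in regions of both lines. The HOXD element has 16 of the 17 bases of the match in common with them, and lay in no region of either line. The element beyond HOXB1 lay in regions of both lines. That beyond HOXC4 lay in an H82 region of 1655 bp (chr12:54081202-54082856), with no H146 region. The other 3 matches lay in no region of either line. A match is not shown to be bound. Of 8 genes of the retinoid pathway, 5 had a TSS region in both lines (CYP26A1, CYP26B1, RARA, RARB and RARG), and ALDH1A2 and ALDH1A3, which make retinoic acid, had one in H82 only (25.0%, against 5.09% of all genes). Both ALDH1A genes lie on chromosome 15, where the ratio of covered share, H82 to H146, was 1.90, against 1.20 for the genome. The H82 region covered 42.5% of the bases within 1 kb at ALDH1A2 and only 3.90% at ALDH1A3. Within 10 kb of the TSS the covered share was higher in H82 at 7 of the 8, and by at least 10 points at 4, against 11.6% of all genes. RARA, a receptor of retinoic acid, had 49.4% in H82 and 30.4% in H146. The CYP26 enzymes break retinoic acid down, and of these CYP26C1 had a TSS region in neither line.

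The insulator protein CTCF divides HOX clusters into domains. The common form of its binding word matched at 3 places in the 4 windows. The matches at chr7:27161138-27161149 in HOXA, between HOXA7 and HOXA9, and at chr17:48663322-48663333 in HOXB lay in regions of both lines, and that at chr17:48551174-48551185 in HOXB3 in neither. Genome-wide 52.0% of 11054 matches lay in H82 regions and 54.4% in H146 regions.

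Non-coding genes of the clusters were placed in the same classes. Of 22 long non-coding RNA genes with a TSS among the HOX genes or in the flanks, 12 had a TSS region in both lines, 6 were of H82 alone, 4 of neither and 0 of H146 alone. Over the 5733 named genes of this kind in the genome the shares were 51% in both lines, 7.43% in H82 only, 37.8% in neither and 3.77% in H146 only. HOTAIR, an RNA of the HOXC cluster known for its link to Polycomb, had 57.5% of the bases within 1 kb covered in H82 and 0% in H146. HOXC13-AS had 64.4% and 0%, HOXC-AS1 had 67.2% and 0%, and HOXD-AS2 had 60.3% and 0%. HOXA-AS2 and HOXA-AS3 were of H82 only as well. HOTTIP, an RNA at the posterior end of HOXA known to act with trithorax proteins, had 68.8% and 60.02%. Several of these RNAs start close to a HOX gene on the opposite strand, so that 1 region can serve both, and ATAC-seq does not tell strands apart.

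MicroRNAs of the clusters repress HOX messages, and 3 are shown because the first 2 share a seed and the last differs from them (RefSeq, GRCh38.p14, seed bases 2 to 8 in capitals).
miR-196a-5p (MIR196A1 and MIR196A2): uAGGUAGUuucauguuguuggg
miR-196b-5p (MIR196B): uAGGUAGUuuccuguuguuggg
miR-10a-5p (MIR10A): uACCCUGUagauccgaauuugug

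The miR-196 members share the seed AGGUAGU though they come from 3 clusters, and miR-10a-5p has the seed ACCCUGU. MIR196B, beside HOXA9, lay inside a region of each line. The nearest region to miR-196a-5p of MIR196A2, in HOXC, was 160 bp away in H82 and 3580 bp away in H146. That of MIR196A1, in HOXB, was 870 bp away in H82 and 789 bp away in H146. For miR-10a-5p the nearest region was 994 bp away in H82 and 1307 bp away in H146, and around the MIR10B gene start in HOXD no region lay within 1 kb in either line. The place of the mature sequence is not the start of its primary transcript.

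The protein-coding neighbours were placed likewise. EVX2, beside HOXD13, had 39.1% of the bases within 1 kb of its TSS covered in H82 and 0% in H146. EVX1, beside HOXA13, had 27.3% and 65.5%, so that H146 was the higher. PRAC1 and PRAC2, next to HOXB13, each had 16.8% and 0%. Of 13 relatives of the HOX genes, 6 had a TSS region in both lines, 5 in H82 only (CDX2, EVX2, GSX1, MEOX1 and MEOX2), 0 in H146 only and 2 in neither (CDX1 and CDX4). The share of H82 only was 38.5%, against 5.09% of all genes. EVX2 lies in the flank of HOXD. The relatives of H82 only outside the cluster windows were CDX2, GSX1, MEOX1 and MEOX2, where regions covered at most 18.7% of the bases within 1 kb. Of 9 cofactors 8 (88.9%) had a TSS region in both lines, against 75.4% of all genes, and 0 had one in H82 only. Within 10 kb the covered share was higher in H82 by at least 10 points at 3 of the 9, against 11.6% of all genes. These were MEIS2 with 50.4% and 26.7%, PKNOX2 with 34.9% and 13.004%, and PBX3 with 31.8% and 19.5%. The ratio of covered share, H82 to H146, was 1.90 for the whole of chromosome 15, where MEIS2 lies. It was 0.916 for chromosome 11 (PKNOX2) and 1.34 for chromosome 9 (PBX3). Of 6 regulators of HOX chromatin, BMI1, CTCF, EZH2, KMT2A and SUZ12 had a TSS region in both lines and EED in neither.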

How the data were processed

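ATAC-seq libraries of H82 and H146 cells, untreated or treated with FHD-286, were made by the authors. Per the methods of the study, reads were trimmed with Trim Galore 0.4.4 and aligned to hg38 with Bowtie2 2.3.4, regions were called per sample with MACS2, blacklisted regions were removed, and regions within 500 bp were merged into 1 list per line. The deposited values used here are the start and end of each region in bp (2 lists, printed 1-based), and columns with values of single samples that were not used number 0. Merging makes width depend on the spacing of sites. Whether cut sites were shifted for the transposase is not given in the sources used here.

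Genes and TSSs (the 5′ end of the gene record) were taken from GENCODE release 44. Regions were shared when they overlapped by at least 1 bp, which was checked against bedtools 2.31.1. Coverage was computed with Python 3.11.15, numpy 2.4.6 and pandas 2.3.3, and interval and word functions were tested on simulated data. No test was run, since each line has 1 pooled list. The HOX genes, lists, words and thresholds were chosen with earlier results of these data known. All HOX genes were placed in a class, and values were named for genes whose class differed or was neither, for the 5 largest differences within 10 kb in each direction, and for the widest regions. Further members were named to describe the paralog groups. Other windows, starts, flanks, minimum widths and overlaps were tried as alternatives. Some genes of the lists are not reported here by name.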

Additional observations from a re-analysis of the deposited data

How the results depend on the processing

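No paired analysis was possible because the lists pool all samples of a line and the replicate numbers are not carried in them. Under the alternatives, 66 of 87 values lay within 1.5 times the reported count or coverage (for shares of regions, within the 95% Wilson interval, which covers counting error only), and 21 moved further. The median difference within 10 kb kept its sign. HOX genes with a TSS region in H82 only numbered 7 with a 5 kb window. Those of H146 only numbered 0 with windows of 2 kb or 5 kb or with all transcripts, and 4 with regions of at least 500 bp. Those of neither numbered 9 at 500 bp, 0 at 5 kb, 7 with regions of at least 500 bp and 8 without regions that share an edge between the lines, an alternative chosen after the data were seen. Without flanks HOXC was covered to 26.5% in H82 and 9.45% in H146, and H82 regions numbered 24 in HOXA and 26 in HOXD. With regions of at least 500 bp, HOXB had 20 in H82 and 22 in H146 and its coverage turned to 8.50% and 9.10%, HOXC 22 and 10, and HOXD 24 and 15. With an overlap of 50% of both regions, 34.2% of H82 and 55.0% of H146 regions in the clusters were shared. For each of these the reported value stands in the text above. Depth per library is unknown, so a site without a region may have been missed in a shallow library.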

Other observations

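The words CAGATG and TAATCC occurred less often per kb in the H82 regions of the HOX windows than in H82 regions genome-wide. In H82-only regions CAGATG, an E-box bound by NEUROD1, occurred 0.549 times per kb in the HOX windows (28 matches) and 1.24 times per kb genome-wide. The word TAATCC, bound by OTX2 and related homeodomain proteins, occurred 0.588 times per kb (30 matches) and 1.26 times per kb. In regions shared by both lines TAATCC occurred 0.201 times per kb of H82 regions in the HOX windows and 0.469 genome-wide. Other words were searched too, and not all were rarer in the HOX windows. In H146-only regions CAGCTG, another E-box, occurred 1.55 times per kb there (11 matches) and 0.878 times genome-wide. CAGATG occurred 0.282 times per kb of H146-only regions in the HOX windows (2 matches) and 0.895 genome-wide. The HOX regions were also richer in G and C, with 57.3% in H82-only regions and 58.8% in shared H82 regions, against 48.9% and 53.4% genome-wide, and the part of base composition in these densities was not tested.

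Regions with both edges at the same base in the lists were spread unevenly over the chromosomes. They made up 24.1% of H82 regions on chromosome 18 and 2.61% on chromosome 15. On the chromosomes of the HOX clusters the share was 6.66% (chromosome 2), 6.50% (chromosome 7), 8.84% (chromosome 12) and 6.46% (chromosome 17).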
